A study of Mus musculus with 20 samples.

Results

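The 10 genes *Atf4*, *Ddit3*, *Hspa5*, *Trib3*, *Asns*, *Xbp1*, *Herpud1*, *Dnajb9*, *Chac1* and *Pdia4* belong to the responses of the cell to unfolded protein in the endoplasmic reticulum (ER) and to lack of amino acids. They were chosen by name, with every probe whose RefSeq accession maps to one of these symbols, and this gave 13 of the 41174 probes on the array. The array names 16535 genes through 23374 probes, and the 10 genes are all among them. *Trib3* had 2 probes, *Dnajb9* had 3, and each of the other genes had 1. All 13 probes were well above background in liver on 20 of 20 arrays, so that none was lost to a filter on dim spots.

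The sensors of the ER membrane, PERK, IRE1 and ATF6, are held inactive by the chaperone BiP and are released when unfolded protein occupies it. PERK phosphorylates the translation factor eIF2α, as the kinase GCN2 does when amino acids are short, and translation then shifts toward the transcription factor ATF4. IRE1 splices the mRNA of XBP1, and spliced XBP1 and cleaved ATF6 switch on chaperones and the machinery that removes misfolded protein. The liver secretes much of the plasma's protein, and its hepatocytes depend on this system in everyday function.

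Liver RNA came from 20 male mice of the transgenic strain 40.6 (Muta™Mouse), 25 weeks of age, all of which carry a *lacZ* reporter in a phage vector for scoring mutations. There were 5 mice in each of 4 groups: controls given olive oil (replicates 1 to 5) and mice given benzo(a)pyrene (BaP), a polycyclic aromatic hydrocarbon that the liver converts into DNA-reactive metabolites, at a daily dose of 25 mg/kg (replicates 6 to 10), 50 mg/kg (replicates 11 to 15) or 75 mg/kg (replicates 16 to 20). Dosing was by daily gavage for 28 days, and tissue was taken 3 days after the last dose, so the values describe that day alone. Each liver sample carried Cyanine 5 and shared its array with Cyanine 3-labeled reference RNA pooled from 11 mouse cell lines, always in the same dye orientation. A log2 ratio of liver over reference is therefore open to dye bias, which all groups share.

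The description of the series gives the lowest dose as 24 mg/kg, while the sample labels give 25. The labels also name both lungs and liver. Of the hepatocyte markers, 7 of 8 were on the array and all 7 were well above background, with a mean log2 ratio of the list between 4.15 and 5.49 over the arrays. The lung surfactant genes *Sftpb* and *Sftpc* and the lung factor *Nkx2-1* were well above background on 0 arrays, and *Ager* and *Scgb1a1* on 1 and 5. The other 2 lung markers, *Sftpd* and *Sftpa1*, were so on 19 and 16 of the 20 arrays. The arrays lay on 6 slides, and dose and position on the slide coincided on most arrays, so their effects cannot be told apart. Slides 1 to 3 held every group, slides 4 and 5 only animals of 25 and 75 mg/kg/day, and slide 6 only controls and 50 mg/kg/day. Replicates 6, 7, 19 and 20 therefore shared no slide with a control. Between 51.9 and 67.5% of spots per array were well above background, highest in control replicate 4. In whole-liver RNA, fewer cells of a type and less RNA per cell cannot be told apart.

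The promoters of 5 genes are printed because they hold letters of the response elements through which these pathways are known to act. Each is the RefSeq sequence (GRCm38.p6) from 250 bases before to 50 bases after the gene's start, read 5′ to 3′ on the gene's strand, with matches in capitals and position 1 as the first base of the gene. *Hspa5* lies on the plus strand (chr2:34771840-34772139), as do *Herpud1* (chr8:94386179-94386478) and *Chac1* (chr2:119350992-119351291). *Trib3* (chr2:152344011-152344310) and *Asns* (chr6:7693160-7693459) lie on the minus strand.
Hspa5: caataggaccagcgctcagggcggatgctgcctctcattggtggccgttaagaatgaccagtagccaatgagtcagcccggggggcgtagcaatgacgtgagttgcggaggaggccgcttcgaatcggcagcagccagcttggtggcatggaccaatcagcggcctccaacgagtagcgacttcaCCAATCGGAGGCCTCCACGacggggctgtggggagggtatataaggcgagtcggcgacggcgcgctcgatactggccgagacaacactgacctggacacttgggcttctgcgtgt
Herpud1: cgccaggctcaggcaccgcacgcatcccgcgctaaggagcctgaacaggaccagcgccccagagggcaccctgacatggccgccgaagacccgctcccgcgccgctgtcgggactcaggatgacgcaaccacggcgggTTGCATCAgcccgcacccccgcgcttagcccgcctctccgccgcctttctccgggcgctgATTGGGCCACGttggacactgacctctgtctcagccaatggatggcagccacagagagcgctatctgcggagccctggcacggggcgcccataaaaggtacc
Chac1: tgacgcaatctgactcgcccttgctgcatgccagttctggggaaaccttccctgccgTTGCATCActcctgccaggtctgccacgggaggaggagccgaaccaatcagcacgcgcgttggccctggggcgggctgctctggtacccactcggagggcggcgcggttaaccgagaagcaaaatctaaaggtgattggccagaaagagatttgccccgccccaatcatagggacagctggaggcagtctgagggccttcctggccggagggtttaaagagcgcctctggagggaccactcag
Trib3: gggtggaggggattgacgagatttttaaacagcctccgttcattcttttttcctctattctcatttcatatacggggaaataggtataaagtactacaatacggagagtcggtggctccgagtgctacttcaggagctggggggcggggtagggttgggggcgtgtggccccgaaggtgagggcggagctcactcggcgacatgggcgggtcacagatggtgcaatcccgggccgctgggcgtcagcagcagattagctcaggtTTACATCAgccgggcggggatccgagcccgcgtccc
Asns: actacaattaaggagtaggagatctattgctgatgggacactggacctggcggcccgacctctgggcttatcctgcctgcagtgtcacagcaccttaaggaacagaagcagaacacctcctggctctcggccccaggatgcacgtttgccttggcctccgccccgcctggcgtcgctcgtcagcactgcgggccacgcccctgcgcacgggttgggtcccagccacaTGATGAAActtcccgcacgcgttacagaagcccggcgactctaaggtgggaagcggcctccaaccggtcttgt

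The capitals mark 3 motifs, searched on both strands. The ER stress response element, CCAAT and CCACG with 9 bases between them, is bound by ATF6 and XBP1 together with NF-Y. It was found in the *Hspa5* window at positions -65 to -47, and in 0.119% of 32851 mouse promoter windows of the same length. Its second form, ATTGG and CCACG with 1 base between them, which shares the CCACG letters, was found in *Herpud1* at positions -52 to -42 and in 0.0365% of all windows. The core of the amino acid response element, TGATGNAA, to which ATF4 binds with a C/EBP partner, was found in 4 of the 10 windows against 3.97% of all. These were *Asns* (-23 to -16), *Chac1* (-193 to -186), *Trib3* (15 to 22) and *Herpud1* (-112 to -105), the last 3 on the opposite strand. A match of letters is a description of the window and not a measured binding site.

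The question at each dose was whether these transcripts differed between BaP-exposed and control livers. None of the 10 genes passed the test at 25, 50 or 75 mg/kg/day in the limma model of all 20 arrays (Benjamini-Hochberg adjusted p under 0.05 over 27346 present probes and a fold change over 1.5). The number of genes with an unadjusted p under 0.05 was 0 at each dose. Over all present probes, 0% were called at 25, 0% at 50 and 0.135% at 75 mg/kg/day, and 7.81, 6.7 and 11.2% had an unadjusted p under 0.05. At 75 mg/kg/day, 37 probes were called, against 72 without replicate 19, 5 in a model of the 2 groups alone, and 58 or 62 with slide as a fixed or random block, which called 3 or 5 probes at 50 mg/kg/day. The lowest adjusted p among the 10 genes was 0.736, 0.781 and 0.584 from the low to the high dose. For 0 genes at any dose did all 5 exposed animals lie on 1 side of all 5 controls, where 1.21, 0.815 and 1.52% of present probes did so.

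The median log2 fold change of the 10 genes was 0.08 at 25, 0.08 at 50 and 0.10 at 75 mg/kg/day, against 0 for all present probes at each dose. The median absolute log2 change was 0.17, 0.10 and 0.15, against 0.11, 0.11 and 0.12 for all. At 75 mg/kg/day, 6 of the 10 estimates were above 0 and 4 below. With dose as a number, limma gave a trend for 0 of the 10 genes, with 0 at an unadjusted p under 0.05, while 0.157% of present probes had one.

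The precision differed from gene to gene. At each dose, the 95% confidence interval of the fold change lay between a 1.5-fold fall and a 1.5-fold rise for 4 of the 10 genes, *Atf4*, *Ddit3*, *Hspa5* and *Dnajb9*. The other 6 had wider intervals, each of which took in a change of more than 1.5 times. At 75 mg/kg/day the bounds over all 10 genes ran from 0.551-fold for *Pdia4* to 1.89-fold for *Xbp1*.

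**Figure D1:**
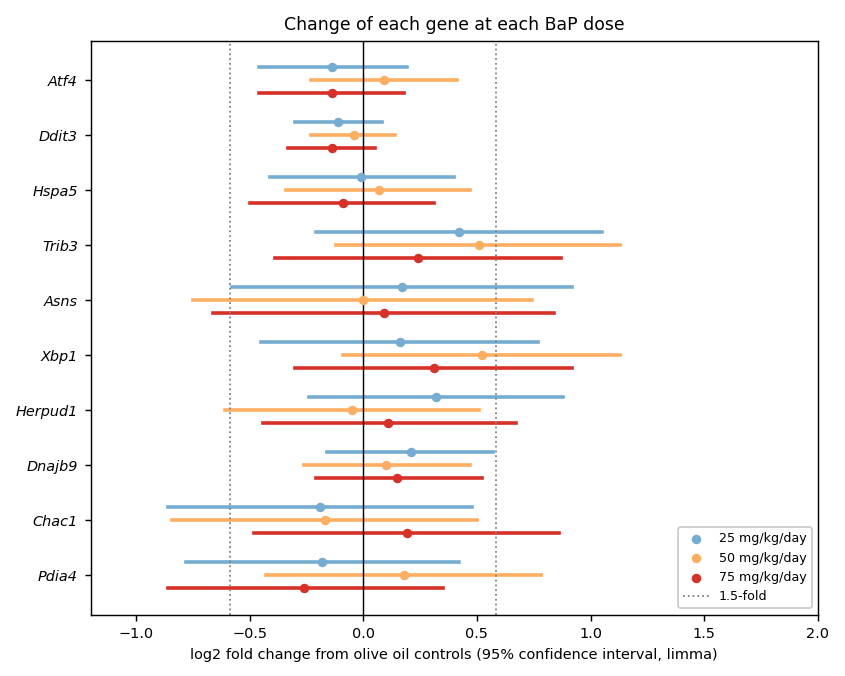
Log2 fold change of each gene from olive oil controls in the 3 BaP groups (points, colored by dose in mg/kg/day) with the 95% confidence interval of the limma model (lines), n = 5 animals a group; dotted lines mark a 1.5-fold change. Every interval crosses 0, and those of *Atf4*, *Ddit3*, *Hspa5* and *Dnajb9* stay within the dotted lines.

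*Atf4* encodes the transcription factor shared by the ER stress and amino acid arms. Its log2 ratios in controls were -1.33, -0.79, -1.44, -1.06 and -1.47, and at 75 mg/kg/day they were -1.14, -1.30, -1.54, -1.60 and -1.21. The 2 sets overlapped, with 2 of 5 exposed animals below all controls. The log2 fold change was -0.14 (SE 0.15) at 25, 0.09 (0.15) at 50 and -0.14 (0.15) at 75 mg/kg/day, the last with an adjusted p of 0.782 in limma. ATF4 is controlled largely at translation, which an mRNA array does not measure.

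*Ddit3* encodes CHOP, the factor that ATF4 induces under lasting stress and that is known for promoting cell death. Control log2 ratios were -1.81, -1.70, -1.65, -1.41 and -1.49, and those at 75 mg/kg/day were -1.71, -1.66, -1.93, -1.73 and -1.72. It was the steadiest of the 10 genes, with a log2 SD within groups of 0.12, and its highest array was only 1.43 times its lowest. The estimates were -0.11, -0.04 and -0.14 (SE 0.09 each), and at 75 mg/kg/day the fold change lay between 0.796 and 1.03 (95% confidence interval; adjusted p = 0.584, limma). Within slides, *Ddit3* was below control in 3 of 3 slides at 25 mg/kg/day, by -0.35 to -0.11, in 2 of 4 at 50 and in 2 of 3 at 75.

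*Trib3* encodes a pseudokinase induced by ATF4 and CHOP that dampens their activity. Its brighter probe read -2.19, -1.78, -1.82, -2.57 and -2.31 in controls and -1.03, -1.88, -1.26, -1.67 and -2.31 at 50 mg/kg/day, where 3 of 5 animals exceeded every control. In the 25 mg/kg/day group it read -1.32, -0.87, -2.41, -1.85 and -2.12, and at 75 mg/kg/day -1.06, -2.39, -2.15, -2.39 and -1.48. The exposed groups spread more widely than the controls, with SDs of 0.62, 0.50 and 0.60 against 0.33, and a test of that difference in spread was not made. The log2 fold changes were 0.42, 0.51 and 0.24 (SE 0.30 each; adjusted p = 0.736, 0.781 and 0.813, limma). Within slides, the brighter probe was above control in 4 of 4 slides at 50 mg/kg/day, by 0.23 to 1.17 on the log2 scale. At 25 mg/kg/day it was above control in 2 of 3 slides, with differences from -0.10 to 0.72. At 75 mg/kg/day it was above control in 3 of 3 slides, by 0.16 to 1.13. Replicates 19 (-2.39) and 20 (-1.48) of that dose shared no slide with a control. The second *Trib3* probe gave -0.11, 0.24 and -0.11 (SE 0.16), so the direction at 25 and 75 mg/kg/day depended on the probe. At 75 mg/kg/day this probe was below the control of the same slide in replicates 17 (-1.21 against -1.05) and 18 (-1.43 against -0.85). It was above that control in replicate 16 (-0.71 against -1.23).

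*Asns* encodes asparagine synthetase, the classic target of the amino acid response. In controls its transcript was 14.8 times lower in liver than in the reference pool of dividing cell lines. Log2 ratios were -4.05, -4.28, -4.52, -3.21 and -3.38 in controls and -4.41, -4.39, -4.19, -3.40 and -2.61 at 75 mg/kg/day. Both groups held a low and a high cluster of animals, and the means differed by 0.09 (SE 0.36; adjusted p = 0.954, limma). In the 3 slides that held both groups, the 75 mg/kg/day animal lay below control each time, by -1.18 to -0.36. The 2 highest animals of that dose, replicates 19 (-3.40) and 20 (-2.61), shared no slide with a control. With slide as a fixed block the estimate became -0.24 (adjusted p = 0.851, limma).

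*Chac1*, which encodes an enzyme that degrades glutathione and is induced by ATF4 through CHOP and ATF3, showed a wide range in the highest dose group. It read -1.63, -1.51, -1.67, -1.76 and -1.07 in controls and -1.32, -1.45, -1.22, -2.40 and -0.29 at 75 mg/kg/day. Both the lowest and the highest of these 10 animals were exposed ones, replicates 19 and 20. The log2 fold change was -0.19, -0.17 and 0.19 (SE 0.32) from the low to the high dose, with an adjusted p of 0.869 at 75 mg/kg/day in limma.

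*Hspa5* encodes BiP itself. Its log2 ratios were -0.09, -0.66, -0.95, -0.55 and -0.91 in controls and -0.71, -0.45, -0.61, -0.96 and -0.89 at 75 mg/kg/day, and 4 of the 5 exposed values fell inside the control range. The log2 fold changes were -0.01, 0.07 and -0.09 (SE 0.19), and the fold change at the highest dose lay between 0.709 and 1.24 (95% confidence interval; adjusted p = 0.897, limma). Slides accounted for 60.8% of the variance of *Hspa5* between arrays, against a median of 40.2% over present probes.

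*Xbp1* encodes the factor whose mRNA IRE1 splices. Its probe measures total *Xbp1* mRNA as named by the annotation, and splicing by IRE1 was not measured. Control animals fell into a high pair, 0.69 and 0.82, and a low set of -0.40, -0.61 and -0.57, while those at 50 mg/kg/day read 0.56, -0.25, 0.92, 1.21 and 0.09 and those at 75 read 0.59, 0.26, 0.11, -0.09 and 0.60. All 5 animals at 75 mg/kg/day lay between the low and the high controls. The log2 fold change was 0.16, 0.52 and 0.31 (SE 0.29; adjusted p = 0.911, 0.781 and 0.733, limma).

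*Herpud1* encodes a membrane protein of ER-associated degradation, *Dnajb9* a BiP cochaperone also called ERdj4, and *Pdia4* a protein disulfide isomerase. In controls, *Herpud1* was 3.54 times and *Dnajb9* 2.39 times higher in liver than in the reference. *Herpud1* read 1.91, 1.94, 2.49, 1.10 and 1.69 in controls and 2.04, 1.43, 2.00, 1.61 and 2.62 at 75 mg/kg/day. The groups overlapped, with a log2 difference of 0.11 (SE 0.27; adjusted p = 0.912, limma), although the exposed animal was above control in 3 of 3 slides, by 0.14 to 0.33. *Dnajb9* read 1.02, 1.28, 1.05, 1.43 and 1.49 against 1.36, 1.60, 1.47, 1.13 and 1.46, a difference of 0.15 (SE 0.17; adjusted p = 0.791, limma). Its other 2 probes gave -0.04 (SE 0.16) and 0.09 (SE 0.17), the latter without replicate 12, whose spots carried an outlier mark. *Pdia4* read -0.64, 1.10, 0.54, 0.05 and 0.02 against -0.03, -0.11, -1.09, 0.64 and 0.38, a difference of -0.26 (SE 0.29; adjusted p = 0.783, limma). Its highest and lowest arrays, control replicate 2 and replicate 18 at 75 mg/kg/day, differed 4.56-fold.

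**Figure D2:**
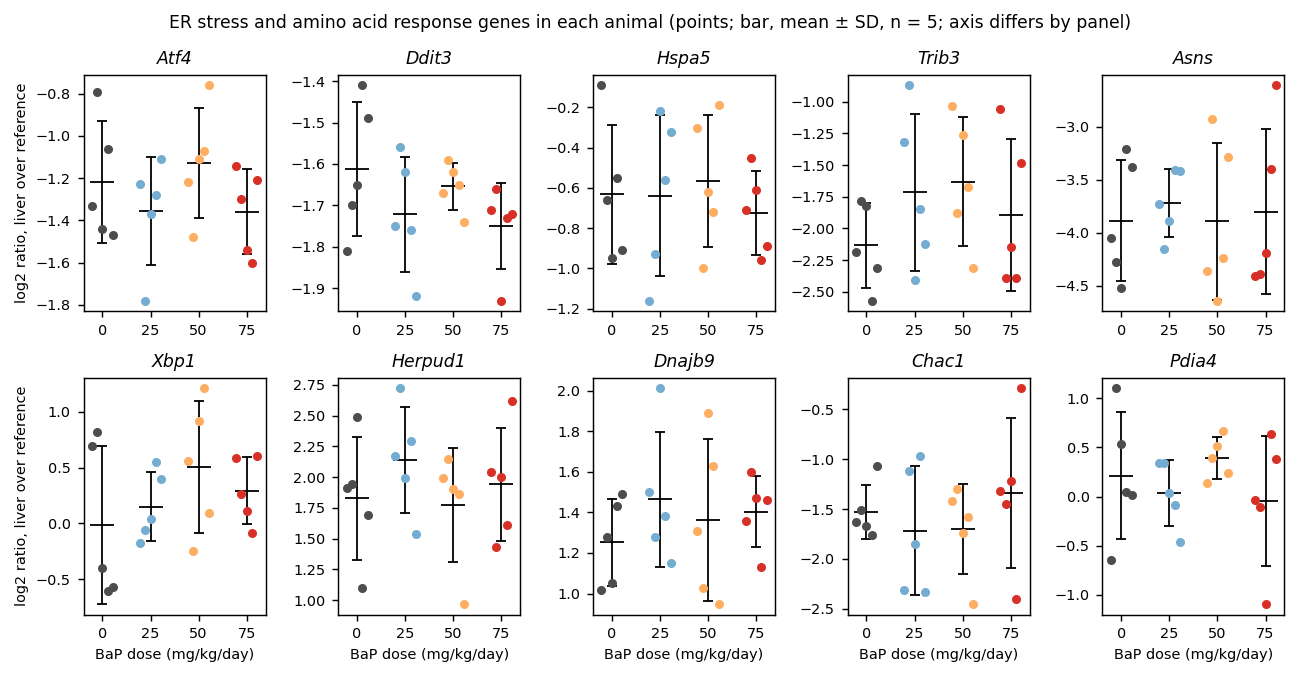
Log2 ratio of liver over reference of the 10 genes in each animal, by BaP dose in mg/kg/day (points; bars show the mean ± SD, n = 5). The vertical axis differs by panel; in every panel each exposed group overlaps the controls.

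Animals of the same group differed widely in most of these genes. Doses accounted for 1.61% (*Asns*) to 19.8% (*Ddit3*) of the variance between arrays, against a median of 15.4% over present probes. This share is not corrected for the number of groups, and some of it arises with no effect of dose. The pooled SD within groups had a median of 0.48 on the log2 scale over the 10 genes and 0.22 over all present probes. Of the 10 genes, 9 were above that median and 6 were more variable than 9 in 10 of all present probes: *Asns* (0.63), *Chac1* (0.56), *Trib3* (0.53), *Xbp1* (0.51), *Pdia4* (0.50) and *Herpud1* (0.46). The values are those of the brightest probe of each gene. For the second *Trib3* probe the SD was 0.26, above 65.7% of present probes, and its highest array was 2.01 times its lowest. These are descriptions, with no test. The highest array exceeded the lowest by 4.56-fold for *Pdia4*, 4.49-fold for *Chac1*, 4.10-fold for *Asns*, 3.52-fold for *Xbp1*, 3.37-fold for *Herpud1* and 3.26-fold for *Trib3*. The share of variance between slides, likewise not corrected for the number of slides, ran from 6.75% for *Chac1* to 60.8% for *Hspa5*.

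**Figure D3:**
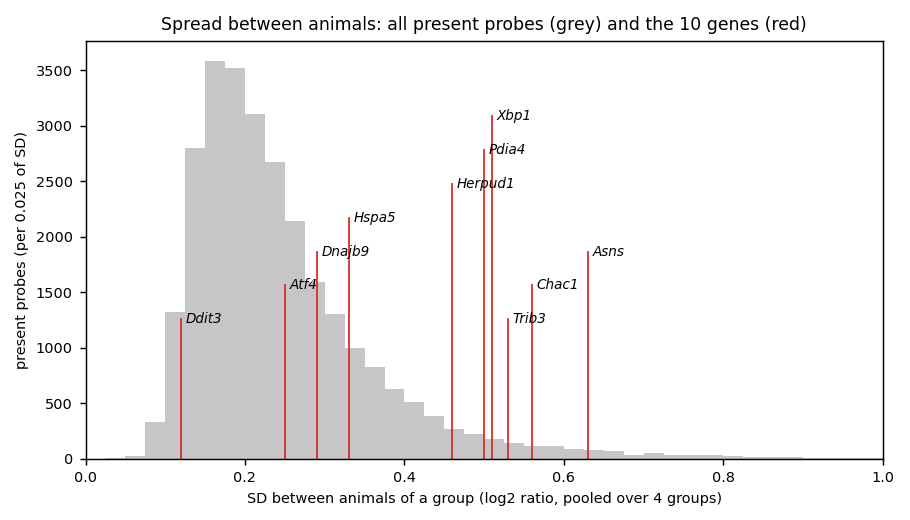
Distribution over all present probes of the SD between animals of a group (log2 ratio, pooled over the 4 groups; grey bars, probes per 0.025 of SD), with the 10 genes, each by its brightest probe, as red lines whose height carries no value. *Ddit3* lies at 0.12, below most probes, while 6 genes lie at 0.46 or above, and the axis ends at an SD of 1.

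Probes of the same gene moved together across animals. The 2 probes of *Trib3* correlated at r = 0.73 over 20 arrays (rho = 0.71; 0.65 without the 2 farthest arrays; adjusted permutation p = 0.000293 over 4 probe pairs), and at 0.69 with the mean of each slide removed. The 3 probes of *Dnajb9* correlated with each other at r = 0.78, 0.95 and 0.73, over 20 arrays for the first pair and 19 for the others. The values of r fell to 0.72, 0.90 and 0.64 without the 2 farthest arrays, and the adjusted permutation p was 6e-05, 4e-05 and 0.0003. The farthest arrays were those farthest from the median of the brighter probe of a pair.

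Between genes, covariation was weaker. Of the 45 pairs, 0 passed a permutation test at an adjusted p under 0.05 (100000 permutations, two-sided), the median r was 0.03, and 27 pairs had r above 0. The highest was *Trib3* with *Herpud1*, at r = 0.66 and rho = 0.62 (permutation p = 0.00161, adjusted 0.0724, and for rho 0.166). It was 0.61 without the 2 farthest arrays and 0.54 with slide means removed. Between genes, the farthest arrays were picked by the first-named gene of a pair alone, so extremes of the second gene could stay in. *Herpud1* with *Chac1* followed at r = 0.59 and rho = 0.56 (permutation p = 0.00616, adjusted 0.139), which was 0.52 without the 2 farthest arrays and 0.70 with slide means removed (adjusted permutation p = 0.199). The arrays left out were replicates 15 and 4, while replicate 20, the highest for *Chac1*, stayed in. All 3 of these genes hold the TGATGNAA letters printed above, and *Trib3* with *Chac1* had r = 0.32. *Asns* holds the letters too, and its r was -0.36 with *Trib3*, -0.13 with *Herpud1* and 0.10 with *Chac1*. A link between the letters and the correlations was not tested.

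*Atf4* mRNA correlated with *Asns* at r = 0.00, with *Trib3* at -0.06, with *Ddit3* at -0.10 and with *Chac1* at -0.27, each with an adjusted permutation p of 0.6 or more. The values of rho were -0.04, 0.07, -0.11 and -0.33. Without the 2 arrays farthest in *Atf4*, replicates 7 and 15, r became -0.21, 0.36, 0.09 and -0.01, so neither size nor sign was stable. With *Herpud1*, r was -0.50 (adjusted permutation p = 0.308) and fell in size to -0.15 without the 2 farthest arrays. With slide means removed, *Atf4* and *Pdia4* formed the 1 pair that passed, at r = 0.66 (adjusted permutation p = 0.0301, shuffled within slides). Their r was 0.25 before slide means were removed (adjusted permutation p = 0.608), and rho with slide means removed was 0.62 (adjusted permutation p = 0.128).

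**Figure D4:**
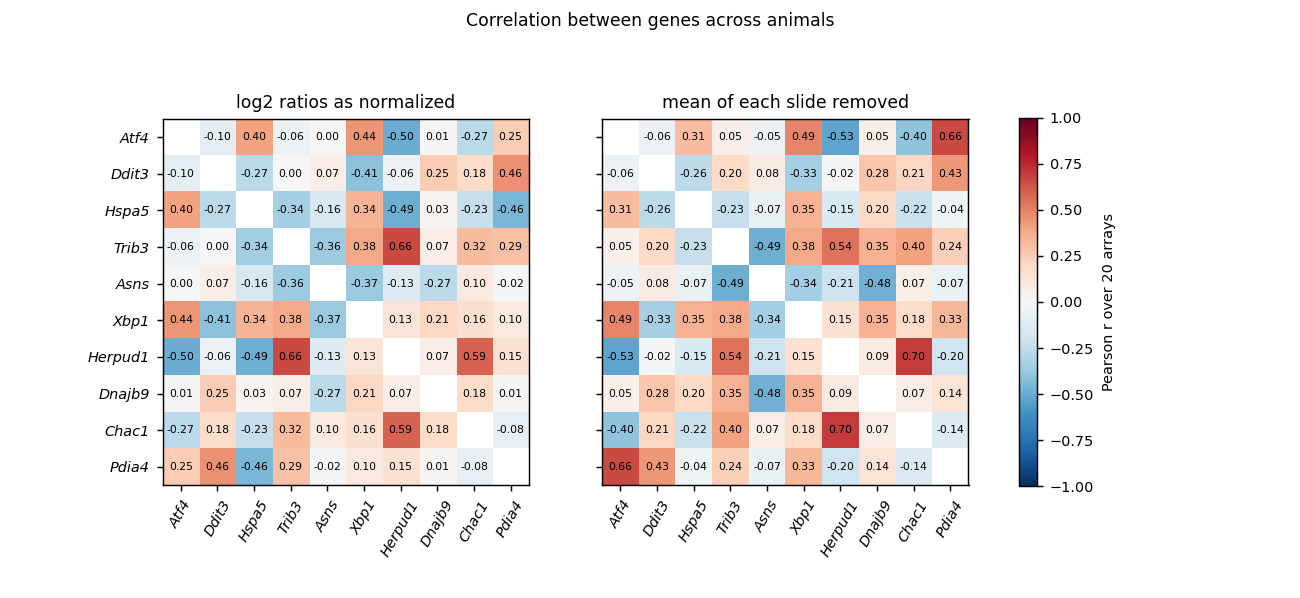
Pearson r between each pair of the 10 genes over 20 arrays, with the log2 ratios as normalized (left) and with the mean of each slide removed (right); red is above 0 and blue below. On the left *Trib3* with *Herpud1* is highest at 0.66, and on the right *Herpud1* with *Chac1* at 0.70.

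The nearest genes by r with slide means removed, among 12808 genes, were *Uts2r* (0.89), *Spcs2* (0.83) and *Tlcd4* (0.80) for *Hspa5*. For *Ddit3* they were *Wiz* (0.84), *Coprs* (0.84) and *Tmem98* (0.82), for *Trib3* *Dffb* (0.84), *Epha1* (0.83) and *Per1* (0.83), and for *Asns* *Polrmt* (0.84), *Tmed10* (0.81) and *Slco3a1* (0.79). None of the 10 genes was among the 20 nearest of another. Genes of the wider pathway were so for *Pdia4*, with *Fkbp2* first (0.86), *Pdia5* (0.81) and *Sdf2l1* (0.79), all of them ER folding proteins, and for *Atf4*, with *Edem2* (0.77) and *Calr* (0.76). These are descriptions over 20 arrays that share slides, with no test.

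The wider pathway was read in 102 further genes in 4 lists, of which 96 were on the array and 94 were tested. By limma, 0 of the 94 were called at each dose, and 9, 7 and 13 had an unadjusted p under 0.05 at 25, 50 and 75 mg/kg/day, beside 7.81, 6.7 and 11.2% of all present probes. The 38 genes of the integrated stress and amino acid response had a median log2 fold change of 0.02 at the highest dose. The 12 sensors and factors of the unfolded protein response had a median of 0, as did the 23 genes of ER-associated degradation and transport. For the 21 ER chaperones and folding enzymes the median was -0.07, with 15 of 21 estimates below 0, where 49.4% of all present probes were below 0.

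*Edem1*, which encodes a lectin-like protein that hands misfolded glycoproteins to degradation, was the 1 gene of the lists whose 5 animals of the 75 mg/kg/day group each exceeded every control, as 0.936% of present probes did. It read 0.41, 0.09, 0.36, 0.36 and -0.02 in controls and 0.44, 0.50, 0.64, 0.60 and 0.41 at 75 mg/kg/day. To 2 decimals the lowest exposed value equalled the highest control, 0.41, and the log2 difference of 0.28 (SE 0.12) did not pass (adjusted p = 0.377, limma). *Atf3*, also chosen after its values were seen, had all 5 animals at 25 mg/kg/day below every control. There 1.21% of present probes had all 5 on 1 side. Its log2 fold change was -0.20 (SE 0.09; adjusted p = 0.636, limma) at 25 and -0.10 at both 50 and 75 mg/kg/day. *Hyou1*, the ER chaperone ORP150, chosen after its values were seen, read -0.30, 0.87, 0.26, 0.42 and -0.12 in controls and -0.67, -0.28, -0.89, 0.62 and -1.16 at 75 mg/kg/day. Its log2 fold change was -0.71 (SE 0.26; adjusted p = 0.321, limma), and without replicate 19 it was called at -0.98 (adjusted p = 0.0473, limma), in a fit that called 0.263% of all present probes. Replicate 19 was the 1 animal of its group above 0.

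Among other cell types, the endothelial marker list (7 of 7 genes well above background) had a mean log2 ratio of 2.34 to 3.10 in controls and 3.25 to 3.80 at 75 mg/kg/day, with no overlap. The list ran from 2.97 to 3.49 at 25 and from 2.94 to 3.53 at 50 mg/kg/day, and both overlapped the controls. At 75 mg/kg/day 1 of its genes was called by limma and 4 of 7 had an unadjusted p under 0.05. Of all present probes, 0.135% were called at that dose and 11.2% had an unadjusted p under 0.05. Taken singly, 1.52% of present probes had all 5 exposed animals on 1 side of all controls, and no such share was taken for means of lists. Of the hepatocyte markers 0 were called and 5 of 7 had an unadjusted p under 0.05, while the list ran from 4.15 to 5.45 in controls and from 5.03 to 5.41 at 75 mg/kg/day. The Kupffer cell list, with 1 of 8 genes called, ran from 2.15 to 2.57 and from 2.33 to 2.97. In the other 8 lists 0 genes were called and at most 2 a list had an unadjusted p under 0.05 in limma. These were 2 of 7 present genes for stellate cells and fibroblasts and 2 of only 3 for neutrophils. The neutrophil list ran from 0.54 to 1.19 in controls and from 0.66 to 1.87 at 75 mg/kg/day. The plasma cell list, whose cells are rich in *Xbp1*, ran from -1.63 to -1.24 in controls and from -1.58 to -1.34 at 75 mg/kg/day. Only 3 of its 6 genes were well above background on 10 or more arrays, which limits what the list could show. The part of cell make-up in the values of the 10 genes was not tested.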

How the data were processed

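Liver RNA of 20 mice, 5 a group, was hybridized with a common reference on two-color arrays. The authors deposited scanner files with the median intensity of each spot and its local background in both channels, extracted with Feature Extraction (version 10.1.1.1 in the file headers). They also deposited log2 ratios normalized by LOWESS within each array. The processed intensities in the deposited files were background subtracted and dye normalized by the scanner software. Here normexp (offset of 50) corrected the median intensities for background, loess normalized each array, and the spots of a probe were averaged as log2 ratios of liver over reference, giving 41174 probes from 43379 spots that were not controls. Spots marked as outliers were left out, and 0 spots were saturated. Across probes, r between the authors' ratios and these was 0.994 to 0.996, and 0 columns of other samples were set aside.

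Presence followed the study's methods: 153 negative control spots gave a limit (mean trimmed by 5%, plus 3 trimmed SDs), which the liver signal had to pass on 4 or more of the 5 arrays of a group (27346 probes). All 20 arrays entered 1 model, with a contrast of each dose against control, fitted by limma 3.58.1 (R 4.3.3, statmod 1.5.0 and the data.table package, 1.17.8), tested on simulated data. MAANOVA, which the study's methods name, was not used, and all 20 samples were kept although the methods removed 1 that they do not name. The number of arrays limits the precision. Correlations and summaries used Python 3.11.15, numpy 2.4.6 and scipy 1.17.1, and figures matplotlib 3.10.9. Motifs were searched in 32851 RefSeq promoter windows.

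The genes and lists were chosen with earlier results of these data known. All 10 genes and their probes are named, and the brightest present probe represents a gene. Pathway genes are named if called, or if all animals of a dose lay on 1 side of all controls at the highest dose (up to 3 a list by size of change). Neighbors by correlation are given as the 3 nearest for 4 genes, and for the others where a pathway gene was among the 20 nearest. Alternatives were the background correction, the scanner's processed signals, the authors' ratios, the liver channel alone, the presence filter, slide as a block, a model of 2 groups, other probes, adjustment over all contrasts and leaving out each animal.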

Additional observations from a re-analysis of the deposited data

Results flagged for a closer look

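In 2 of 40 gene and dose groups, 1 animal stood far from the other 4 of its group. Chance flags about 1 in 20 groups, which is 2 of 40. *Ddit3* was lowest in replicate 18 at 75 mg/kg/day, at a log2 ratio of -1.93 against -1.73 to -1.66 in the other 4 animals. *Herpud1* was lowest in replicate 15 at 50 mg/kg/day, at 0.97 against 1.86 to 2.15.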

How the results depend on the processing

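No gene of the 10 was called under any alternative run, and the lowest adjusted p was 0.253 (*Ddit3* at 75 mg/kg/day, -0.21, authors' ratios, limma). Of 879 log2 fold changes under alternatives, 830 kept their sign and 49 turned, none by a value over 0.24 in size. *Hspa5* turned at 25 mg/kg/day without background correction (0.00), with the processed signals (0.15) and with slide as a fixed block (0.06), at 75 with the processed signals (0.11) and at 50 with the authors' ratios (-0.02). With the liver channel alone, *Ddit3* turned at 25, 50 and 75 mg/kg/day (0.04, 0.02 and 0.02), *Asns* at 75 (-0.15), and at 50 *Atf4* (-0.13), *Hspa5* (-0.08), *Herpud1* (0.01) and *Pdia4* (-0.03). With slide as a fixed block, *Asns* turned at 25 (-0.16) and 75 mg/kg/day (-0.24), and as a random block at 75 (-0.02). Other probes turned *Trib3* at 25 and 75 mg/kg/day (-0.11 each) and *Dnajb9* at 50 (-0.14) and 75 (-0.04). Leaving out 1 animal turned some estimates. At 25 mg/kg/day these ranges were -0.11 to 0.13 for *Hspa5* and -0.39 to 0.04 for *Pdia4*. At 50 mg/kg/day these ranges were -0.04 to 0.40 for *Pdia4*, -0.03 to 0.20 for *Hspa5*, -0.23 to 0.15 for *Herpud1*, -0.09 to 0.01 for *Ddit3*, -0.25 to 0.18 for *Asns*, -0.03 to 0.21 for *Dnajb9*, 0.00 to 0.20 for *Atf4* and -0.27 to 0.02 for *Chac1*. At 75 mg/kg/day these ranges were -0.17 to 0.04 for *Hspa5*, -0.21 to 0.26 for *Asns*, -0.07 to 0.28 for *Herpud1*, -0.47 to 0.00 for *Pdia4* and -0.07 to 0.46 for *Chac1*. Without replicate 19 at 75 mg/kg/day, 1 pathway gene was called in place of 0 (0 to 1 over the animals left out), while calls over all present probes went from 37 to 72, and with slide means removed 1 correlated pair passed in place of 0. Without control replicate 4, chosen after seeing the data, 0 pairs passed. The cause of these differences was not tested. The animals' numbers are not shared between groups, so slide was the block that could be fitted.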
